A study of Mus musculus with 4 samples.

Results

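Rest, Rcor1, Rcor2, Rcor3 and Kdm1a encode the repressor REST and the core of CoREST, the corepressor complex that it recruits. The 5 genes were picked out by symbol, by a rule that uses no measured value, though earlier results of these data were known when the rule was made. All 5 were found among the 28250 genes listed for each library, and all 5 passed the filter on low values, so that they belong to the 20336 genes tested. RNA-seq had been performed on TBV2 cells, a feeder-dependent mouse embryonic stem cell (ESC) line of 129/SvP origin that was kept with LIF. The paper names gelatin plates for its proliferation and colony assays. In 2 libraries the cells had been given solvent for 24 h, and in the other 2 they had been given 5 µM MS-275, an inhibitor of class I histone deacetylases, for 24 h. The control is called solvent in the labels, and which solvent it was could not be settled. Whether the cells were wild type or carried the EGFP transgene that the line also has in the study is not said for these libraries, and no further agent is named. All 4 libraries come from this 1 line. Nothing in the sources says that replicates were separate cultures, so the p-values below measure only the spread between these libraries, which may be technical.

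REST is a zinc finger protein that binds a DNA element called RE1, found near many genes used by neurons, and keeps these genes silent in other cells. Its carboxyl end recruits CoREST, in which RCOR1, RCOR2 or RCOR3 is the scaffold that joins KDM1A, a demethylase of histone H3, to the deacetylases HDAC1 and HDAC2. Its amino end recruits a second deacetylase complex built on SIN3. ESC express Rest, and REST is known to be lost as such cells become neurons.

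The DNA that REST reads is shown first, since the later results on its targets rest on matches to it. The mm9 genome was searched on both strands for the RE1 letters TTCAGCACC, any 2 bases and GGACAGCGC, which overlap no other motif searched, with at most 2 mismatches over the 18 fixed letters. It held 609 such matches, of which 16 matched at every fixed letter. A match lay within 5 kb of an annotated start for 189 of the 21969 listed genes that have a start on the annotation, or 0.860% of them. For 187 of these genes the place of the nearest match was read, and it lay in an intron for 79, outside the gene for 69, in an exon outside the coding sequence for 21 and in a coding exon for 18. The sites below are those of classical REST targets and of genes that moved furthest in these libraries. They are written 5′ to 3′ in the orientation of the motif, on the strand given, and capitals mark the letters that match the motif.
Stmn2 (chr3:8508230-8508249, + strand): TTCAGCACCacGGACAGCGC
Chrnb2 (chr3:89568377-89568396, - strand): TTCAGCACCacGGACAGCGC
Lhx3 (chr2:26063793-26063812, - strand): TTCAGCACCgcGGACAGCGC
Prmt8 (chr6:127717993-127718012, - strand): TTCAGCACCagGGACAGCGC
Scn2a1 (chr2:65458021-65458040, + strand): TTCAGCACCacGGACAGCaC
Chga (chr12:103793448-103793467, + strand): TTCAGCACCtcGGACAGCaC
Vgf (chr5:137506145-137506164, - strand): TTCAGCACgctGGACAGCGC
Syn1 (chrX:20498257-20498276, - strand): TTCAGCACCgcGGtCAGaGC
Nefm (chr14:68743781-68743800, + strand): ggCAGCACCaaGGACAGCGC
Calb1 (chr4:15808438-15808457, + strand): agCAGCACCgcGGACAGCGC
Elavl3 (chr9:21858314-21858333, + strand): TTCAGCACCacaGACAGCGg
Ncan (chr8:72641713-72641732, - strand): TTCAGCACCaaGGACAGatC
Muc3 (chr5:137611025-137611044, - strand): aTCAGCACCaaGGACAGtGC
Nphs1 (chr7:31269441-31269460, - strand): TcCAGCACCatGGACAGCGt
Positions are counted from the nearest annotated start of the gene. The Stmn2, Scn2a1, Nefm, Elavl3, Syn1, Vgf and Lhx3 sites lay outside the gene, at -1288, -884, -888, -1856, -136, -10 and -34. Those of Chrnb2 (168), Calb1 (34) and Muc3 (3962) lay in exons outside the coding sequence, and those of Chga (278), Ncan (3050), Prmt8 (1488) and Nphs1 (-1824) lay in introns. A match of letters is a description of the genome and does not show that REST binds there. The genes of the 5 members held no such match in the gene or within 20 kb of it, and Rest alone held 1 match when 3 mismatches were allowed.

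Each library came as a normalized expression value per gene and as a list of 35-base alignments on mm9. The deposited alignments numbered from 9785619 to 23467935 per library, and they occupied from 9122347 to 10973569 distinct positions, a position and strand being counted once. Repeats made up 53.2% and 54.4% of the alignments deposited with replicate 1 and none of those deposited with replicate 2. Over 9621 to 11458 genes (genes do not replicate each other), a library's values tracked its own alignments less closely (Pearson's r across genes from 0.761 to 0.874) than those of its duplicate (r from 0.917 to 0.927). Mitochondrial alignments were deposited with replicate 2 alone (13431 and 13889), while the mitochondrial genes COX1, ND5 and ND6 had values above 0 in replicate 1 alone. Replicate numbers are therefore those of the values on the value scale and those of the alignments on the position scale. Whether the alignment files were exchanged between the replicates of each condition could not be settled. The pairs, replicate 1 against 1 and 2 against 2, join the same libraries on either reading. If the files were exchanged, pair 1 on values is pair 2 on positions, so pair numbers cannot be matched between the scales. The whole table was shifted as well, by a median of 0.20 on the log2 scale, or of -0.01 after median-ratio scaling of the libraries, and a change of the members is to be read against this shift.

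Rest itself had values of 0.505 and 0.926 in solvent replicates 1 and 2, and of 0.267 and 0.312 in MS-275 replicates 1 and 2. Both treated libraries lay below both control libraries. How many of all genes separate like this is not given here, for Rest or for any gene below. In solvent 97.1% and 97.5% of the genes listed had a lower value than Rest, and in the treated libraries 88.9% and 89.8% did. Its log2 fold change was -1.23 (SE 0.499, n = 2 and 2), which is a value 2.34 times lower, with changes of -0.91 and -1.55 in pairs 1 and 2. The spread between the replicates was wide, and without a block Rest did not pass (limma adjusted p = 0.240, against an unadjusted p of 0.0347). In this fit 1 of the 20336 genes tested was called in either direction, or 0.00492%, a gene being called when its adjusted p was under 0.05. With the replicate number as a block Rest fell (limma adjusted p = 0.00213). That fit called 6.46% of all genes lower and 21% higher.

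The alignments gave a second reading of Rest. Rest spans chr5:77694516-77715457 on the + strand of mm9. At its exons 3620 and 2991 distinct positions were occupied in solvent and 1523 and 1782 with MS-275. These were scaled, as RPKM scales reads, to exon length and to the library's positions on exons not shared between genes. This is a density of 72.2 and 62.6 against 37.4 and 33.4, and the groups did not overlap. Rest fell on this scale without a block (log2 fold change -0.93, SE 0.134, limma-voom adjusted p = 0.00653) and with it (limma-voom adjusted p = 1.62e-07). The positions without a block called 5.08% of all genes lower and 15.1% higher. Of its 6 exon blocks, 4 had at least 10 positions in some library, and all 4 were lower in both pairs, with mean log2 ratios from -1.14 to -0.55. The longest block, of 5730 bases, held 86.2% of the positions, and its log2 ratios were -0.90 and -0.91 in pairs 1 and 2. Intron positions, counted on either strand with exons of overlapping genes left in, numbered 370 and 281 in solvent and 114 and 112 with MS-275. Such positions can come from unspliced or partly spliced RNA or from an overlapping gene. Their log2 ratios were -1.40 and -1.49 in the pairs, beside -0.95 and -0.91 for the exons. A short gene model, AC141469.1, overlaps Rest, and the library preparation does not keep the strand as far as the sources say, so reads of both cannot be told apart. In bulk libraries fewer cells with a transcript and less transcript per cell cannot be told apart either, for Rest or for any gene below.

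Among the CoREST scaffolds, Rcor2 and Rcor3 were lower in both treated libraries than in their paired controls, and Rcor1 differed by less than the spread between its replicates. Rcor2, the scaffold best known from ESC and neural progenitors, had values of 0.343 and 0.576 in solvent and of 0.230 and 0.350 with MS-275. The groups overlapped narrowly, since the higher treated library lay above the lower control. Its log2 fold change was -0.64 (SE 0.468), with -0.56 and -0.71 in the pairs. Rcor2 did not pass without the block (limma adjusted p = 0.585) and missed the threshold with it (limma adjusted p = 0.0519). It passed with the block after median-ratio scaling (limma adjusted p = 0.00349) and after quantile normalization (limma adjusted p = 0.00744). On the position scale its density was 43.8 and 38.3 in solvent and 24.7 and 26.7 with MS-275, with no overlap. Rcor2 fell on that scale (log2 fold change -0.67, SE 0.166, limma-voom adjusted p = 0.0300). Of its 12 usable exon blocks, 11 were lower in both pairs and 1 was higher in both. Its intron positions numbered 242 and 86 in solvent and 49 and 43 with MS-275, so that the control libraries differed from each other by more than the treated libraries did. Rcor2 lies at chr19:7341815-7349715 on the + strand, and no other annotated gene overlaps it.

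Rcor3, the least abundant scaffold here, had values of 0.116 and 0.0645 in solvent and of 0.0443 and 0.0410 with MS-275. Both treated libraries lay below both controls. The log2 fold change was -0.95 (SE 0.505), with -1.30 and -0.59 in pairs 1 and 2. It did not pass without the block (limma adjusted p = 0.397) and fell with it (limma adjusted p = 0.0159). The position scale gave 11.2 and 10.7 in solvent and 5.98 and 5.46 with MS-275, and there Rcor3 fell without the block too (log2 fold change -0.94, SE 0.245, limma-voom adjusted p = 0.0344). These densities rest on 224 and 204 positions in solvent and 97 and 116 with MS-275. They leave out exon bases shared with Gm10516 and Gm16621, which overlap Rcor3 at chr1:193922652-193961892 (- strand). Of 11 exon blocks 3 were usable, 2 of them lower in both pairs, and the block of 2385 bases, which held 81.3% of the exon positions when shared bases are counted too, had log2 ratios of -0.51 and -1.23. Intron positions, which can include exons of the overlapping genes, gave log2 ratios of -1.75 and -1.11.

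Rcor1, the founding CoREST scaffold, had values of 0.160 and 0.125 in solvent and 0.145 and 0.113 with MS-275, and the groups overlapped. Within each condition replicate 1 was the higher, and the pairs differed by -0.14 and -0.14. The log2 fold change of -0.14 (SE 0.383) did not pass without the block (limma adjusted p = 0.933) or with it (limma adjusted p = 0.680), nor did -0.16 (SE 0.164) on the position scale (limma-voom adjusted p = 0.555). Densities were 23.3 and 20.8 in solvent and 21.5 and 18.4 with MS-275. Of 8 usable exon blocks 5 were lower in both pairs and none was higher in both, and the intron log2 ratios were 0.43 and -0.01. Rcor1 spans chr12:112277561-112354112 on the + strand.

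Kdm1a, the demethylase of the complex, had values of 0.544 and 0.784 in solvent and of 0.495 and 0.503 with MS-275. Both treated values were below both controls, but the nearest of them, 0.544 and 0.503, were closer together than the controls were to each other. The log2 fold change of -0.39 (SE 0.531) did not pass without the block (limma adjusted p = 0.826) or with it (limma adjusted p = 0.300), and the pairs gave -0.14 and -0.64. The position scale placed it nearer to 0, at -0.10 (SE 0.127, limma-voom adjusted p = 0.620), with densities of 46.9 and 45.1 in solvent and 43.6 and 42.0 with MS-275. Of 18 usable exon blocks 7 were lower in both pairs, 1 was higher in both and 10 went opposite ways in the pairs. The intron log2 ratios of -0.17 and -0.15 were close to the exon ratios of -0.10 and -0.10. Kdm1a spans chr4:136106455-136158638 on the - strand. Luzp1 and Gm12987 overlap it, so its intron positions can include exons of these genes. Both the values and the densities of the 5 genes are plotted by library.

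**Figure D1:**
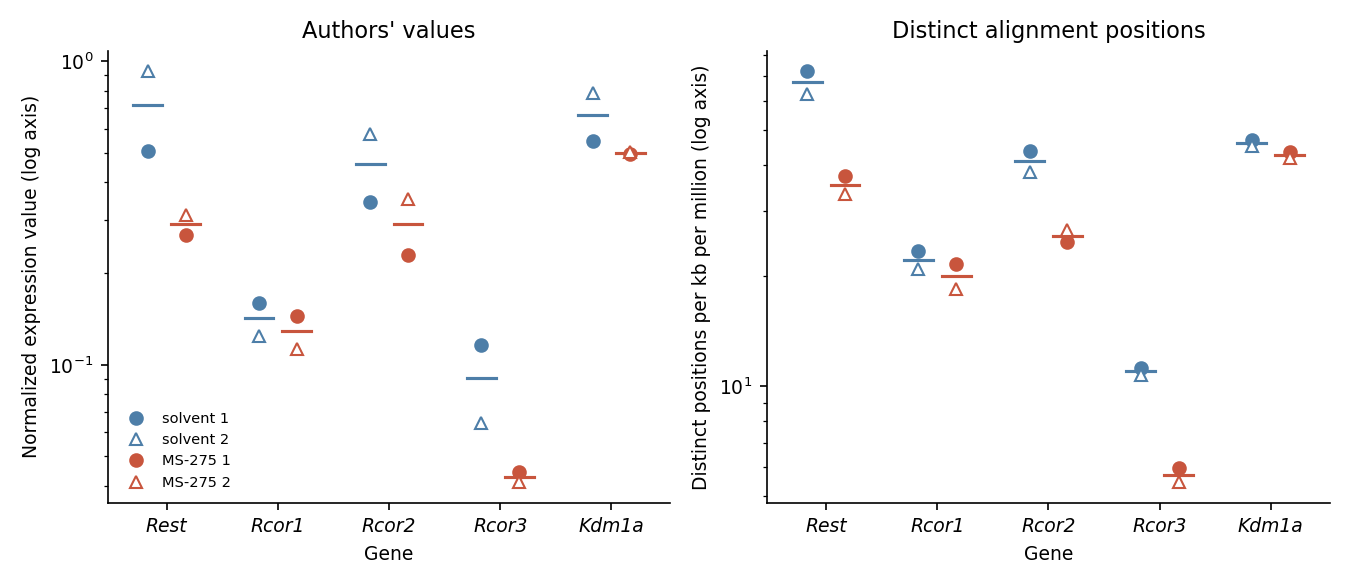
Level of each gene in each library, as the authors' normalized expression value (left) and as distinct alignment positions (right), both on log axes. Positions were scaled, as RPKM scales reads, to exon length and to the library's positions on exons not shared between genes. Solvent is in blue and MS-275 in red, with circles for replicate 1, triangles for replicate 2 and bars for the mean of 2 libraries. Treated libraries of Rest, Rcor3 and Kdm1a lie below both controls on both scales, and those of Rcor2 do so on the right alone. Kdm1a was not called, and the share of all genes separated like this is not given here. Rcor1 and Kdm1a change least on the right.

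Levels were compared between the genes per length alone, on the position scale. In both solvent libraries the order was Rest, Kdm1a, Rcor2, Rcor1 and Rcor3. With MS-275 Kdm1a stood first and Rest second, and the other 3 kept their places. The ratio of the Rest density to that of Kdm1a was 1.54 and 1.39 in solvent and 0.858 and 0.797 with MS-275. In solvent Kdm1a and Rcor2 were the nearest neighbours, and their means of 46.0 ± 1.24 and 41.0 ± 3.88 (SD, n = 2) differed by little more than the spread. With MS-275 Rest (35.4 ± 2.83) and Kdm1a (42.8 ± 1.16) were the nearest at the top, while Rcor2 (25.7 ± 1.36) and Rcor1 (19.9 ± 2.18) drew closer. Rcor2 made up 55.9% and 54.8% of the summed density of the 3 scaffolds in solvent and 47.4% and 52.8% with MS-275. The ratio of Rcor2 to Rcor1 went from 1.88 and 1.84 to 1.15 and 1.45, and that of Rcor1 to Rcor3 from 2.08 and 1.94 to 3.59 and 3.36. At most 24.95% of the possible starts of Rest, the most densely covered gene, were occupied in a library, and a count of distinct positions flattens as this share grows.

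With the block, 2 of the 5 genes, Rest and Rcor3, were called lower and none higher, beside 6.46% and 21% of all genes. On positions without a block 3 of the 5, Rest, Rcor2 and Rcor3, were called lower, beside 5.08% of all genes. The median log2 fold change over the 5 was -0.64 on the value scale, beside 0.20 for all genes. All 5 were lower in both pairs, as were 5397 of the 20336 genes tested. The falls of Rcor1 (-0.14 and -0.14 in the pairs) and Kdm1a (-0.14 and -0.64) were not called. These are descriptions of 5 genes, and no test over them was run.

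**Figure D2:**
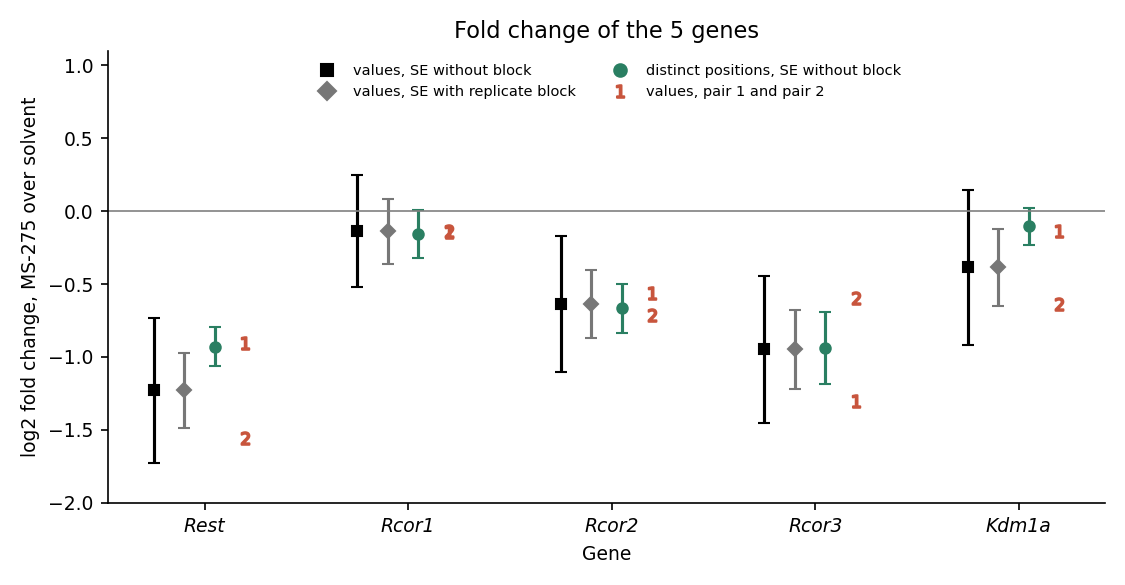
Log2 fold change of MS-275 over solvent for each gene, from the values with the SE without a block (black squares) and with it (grey diamonds), from distinct positions with the SE without a block (green circles), and from each pair of libraries on the value scale (red digits 1 and 2). The green estimates of Rest, Rcor2 and Rcor3 lie at -0.93, -0.67 and -0.94, and those of Rcor1 and Kdm1a at -0.16 and -0.10.

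**Figure D3:**
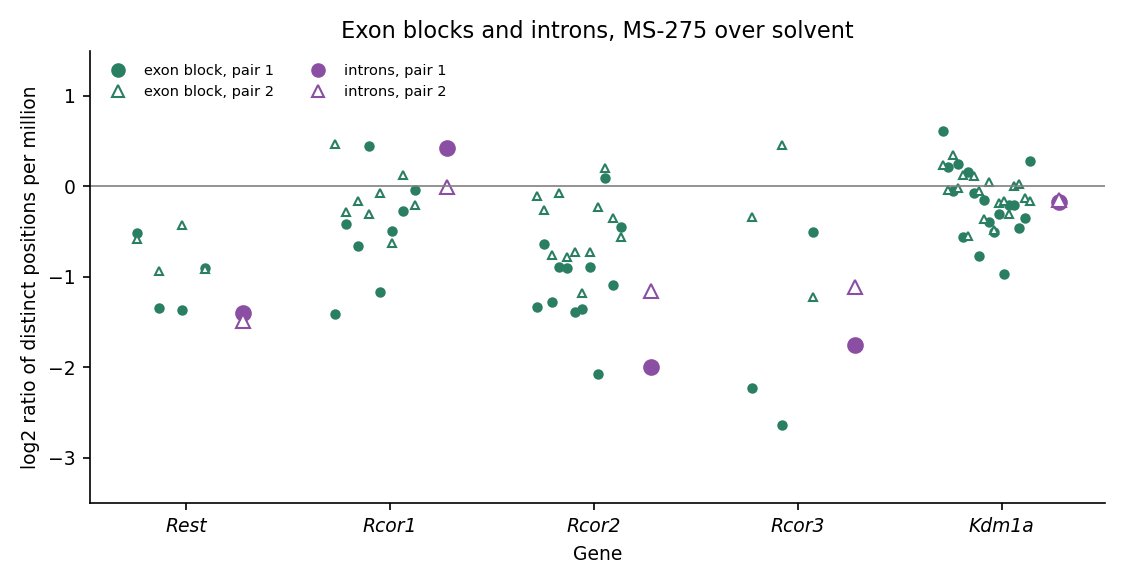
Log2 ratio of distinct positions, MS-275 over solvent, scaled to the library's positions on exons not shared between genes. Each exon block with at least 10 positions in some library is in green, from first to last block. All introns together are in purple, with circles for pair 1 and triangles for pair 2. All blocks and the introns of Rest lie below 0, while the exon blocks of Kdm1a scatter around it and its introns lie at -0.17 and -0.15.

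The 2 genes whose values followed each member most closely over the 4 libraries were picked by the smallest Euclidean distance of the mean-centred log2 values. For Rest these were Maz (distance 0.109), a zinc finger factor, and Dmrt1 (0.124), a factor of germ cells, whose log2 fold changes were -1.22 and -1.29. No gene lay within 0.1 of Rest, whereas 73 did for Rcor1, 15 for Kdm1a and 3 each for Rcor2 and Rcor3. Stat4 and 4930432N10Rik were nearest to Rcor1, Smek1 and the RNA-binding protein gene Msi2 to Rcor2, LOC100503237 and Inhbc to Rcor3, and BB283564 and Plaa to Kdm1a, at distances from 0.0288 to 0.0741. With 4 libraries such likeness is common and describes these libraries only. 4930432N10Rik and BB283564 stayed at or under 0.00286 and 0.00486, below the 0.005 added to each value before the log. Inhbc, with values of at most 0.0111, changed by -0.93 on values but by -2.29 on positions (at most 21 per library). The addition of 0.005 flattens low profiles and can bring them closer together.

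The next genes encode enzymes and scaffolds that sit with the members in CoREST. Of the 11 partners, all tested, none passed without the block, and with it 3 were higher and 2 lower (27.3% and 18.2%), beside 21% and 6.46% of all genes, with a median log2 fold change of -0.07. Hdac1, a target of MS-275 in the complex, had values of 0.0311 and 0.165 in solvent and 0.0423 and 0.360 with MS-275, and the replicates of a condition lay further apart than the conditions. Its log2 fold change of 0.75 (SE 0.936) passed with the block (limma adjusted p = 0.0343) but not after median-ratio scaling with the block (limma adjusted p = 0.147) nor after quantile normalization (limma adjusted p = 0.215). Hdac2, its close relative, had values of 0.635 and 1.20 in solvent and 0.618 and 1.92 with MS-275, and it passed neither without nor with the block (log2 fold change 0.32, limma adjusted p = 0.929 and 0.492).

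The zinc finger genes Zfp217 (log2 fold change 1.23) and Zmym3 (1.17) rose with the block, but the position scale placed Zmym3 at 0.28 (limma-voom adjusted p = 0.215). The corepressor Ctbp2 (-1.33) and Gse1 (-1.06) fell with the block, and the changes of Ctbp2 were uneven, -0.42 in pair 1 and -2.23 in pair 2. The other partners, among them the H3 reader Phf21a and the HMG protein Hmg20b, were not called.

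The SIN3 complex binds the other end of REST. Of its 14 genes, all tested, 1 (7.14%), Sap130, was higher with the block (log2 fold change 0.78) and none was lower, beside 21% and 6.46% of all genes. The call of Sap130 was lost with the block after median-ratio scaling (limma adjusted p = 0.117). The scaffold gene Sin3a had values of 0.490 and 0.355 in solvent and 0.496 and 0.322 with MS-275, a log2 fold change of -0.06. The list ranged from -0.56 to 0.78 with a median of 0.16.

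Of 11 other cofactors of REST none was higher and 4 were lower with the block (36.4%), beside 6.46% of all genes, and the median was -0.25. Among these were Ctdsp2 (-1.02) and Ctdsp1 (-0.85), small phosphatases that REST recruits and that also protect REST from degradation, and Cdyl (-0.76), a bridge between REST and the methyltransferase G9a. On positions without the block Ctdsp2 (-0.77) and Cdyl (-0.67) passed and Ctdsp1 (-0.69) did not. Ehmt1 and Ehmt2, which encode the G9a-type methyltransferases, had log2 fold changes of 0.02 and -0.04.

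Of 9 genes that act on REST protein or on Rest splicing, 3 were higher with the block (33.3%, beside 21% of all genes) and none was lower. Btrc, which encodes the ubiquitin ligase subunit that marks REST for degradation, had values of 0.166 and 0.155 in solvent and 0.263 and 0.244 with MS-275, with no overlap. Its log2 fold change of 0.64 (SE 0.365) passed with the block (limma adjusted p = 0.0385), not without it (limma adjusted p = 0.436) and not with the block after median-ratio scaling (limma adjusted p = 0.238). Prickle1, linked to movement of REST between nucleus and cytoplasm, rose by 1.46 on the log2 scale with the block. Srrm3, a splicing regulator of neurons, had values of 0.00161 and 0.00269 in solvent and 0.0212 and 0.0173 with MS-275, and rose by 1.76 with the block. Its relative Srrm4, which in neurons splices Rest into a truncated form and is itself a REST target, went from 0.00747 and 0.0115 to 0.0140 and 0.0237 without overlap, and its change of 0.70 did not pass (limma adjusted p = 0.643, and 0.0988 with the block). Usp7, which removes ubiquitin from REST, had a change of -0.53 that passed on positions (limma-voom adjusted p = 0.0281), whereas -0.58 on the values did not pass with the block (limma adjusted p = 0.104) unless they were scaled by median ratios (limma adjusted p = 0.0106) or quantiles (limma adjusted p = 0.0124).

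Some transcription factors that carry a SNAG domain dock on KDM1A in the way histone H3 does. Of 6 such genes 5 passed the filter, Gfi1b and Insm2 through the treated libraries alone. With the block 2 of the 5 rose (40%, beside 21% of all genes) and none fell. Snai1 had values of 0.00836 and 0.00697 in solvent and 0.134 and 0.102 with MS-275, a log2 fold change of 3.27 (SE 0.582). That change missed the threshold without the block (limma adjusted p = 0.0581). Snai2 had 0.0173 and 0.0106 in solvent and 0.0882 and 0.0620 with MS-275, a log2 fold change of 2.09, and both genes passed on positions without a block (limma-voom adjusted p = 0.0051 and 0.00653). Gfi1, Gfi1b, Insm1 and Insm2 stayed at or under 0.00879 in all 4 libraries.

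Among 7 genes related to the members, the ELM2-SANT proteins of other deacetylase complexes and the KDM1A relative Kdm1b, none was higher with the block and 2 were lower (28.6%, beside 6.46% of all genes), Mta3 (-1.24) and Mier3 (-1.05), with a median of -0.46. With the block 5 were lower after either scaling, beside 14.1% of all genes for median ratios and 13.6% for quantiles. Kdm1b had values of 0.178 and 0.348 in solvent and 0.218 and 0.359 with MS-275, a log2 fold change of 0.17 on the value scale (limma adjusted p = 0.934) but 0.81 on positions (limma-voom adjusted p = 0.0182). The changes of all these lists in each pair are plotted beside those of the members.

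**Figure D4:**
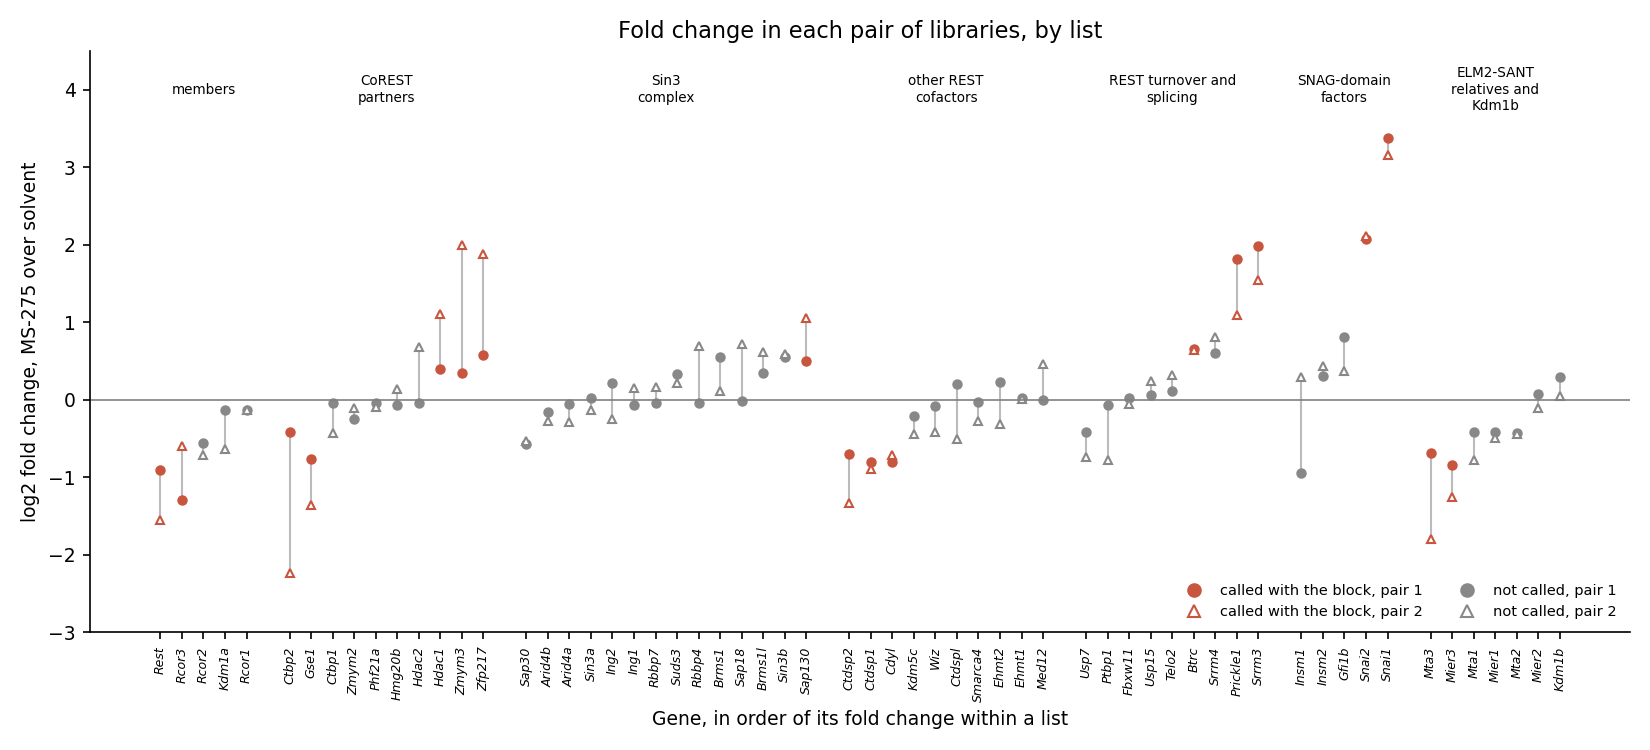
Log2 fold change of MS-275 over solvent in pair 1 (circles) and pair 2 (open triangles) for the 5 members and genes of 6 lists that act with or on them (those reported here), ordered by fold change within a list, with genes called with the block in red. Snai1 (3.38 and 3.16) stands highest and Ctbp2 in pair 2 (-2.23) lowest.

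Genes that REST is known to silence were read next. The list held 50 known targets, of which 48 were listed, 43 were tested and 5 (Gria2, Glra3, Crh, Oprm1 and Lhx3) stood too low to pass the filter. A gene could pass the filter on the treated libraries alone, so the counts describe these genes and do not support a direction. With the block 17 were higher and 1 was lower (39.5% and 2.33%), beside 21% and 6.46% of all genes, and none passed without it. The median log2 fold change was 0.63, beside 0.20 for all genes tested. After median-ratio scaling it was 0.42, beside -0.01, with 16 higher and 4 lower under the block (37.2% and 9.30%), beside 16.6% and 14.1% of all genes. After quantile normalization it was 0.23, beside -0.02, with 11 higher and 2 lower (25.6% and 4.65%), beside 14.3% and 13.6% of all genes. On positions without a block 15 of 38 were higher (39.5%) and none lower, beside 15.1% and 5.08% of all genes. The median there was 0.89 beside 0.14.

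The largest rises among the known targets were in Calb1, a calcium-binding protein of neurons, Nefm, a neurofilament subunit, and Scg3, a protein of secretory granules. Calb1 had values of 0.00128 and 0.000990 in solvent and 0.0713 and 0.0944 with MS-275 (log2 fold change 3.83). Nefm went from 0.00750 and 0.00533 to 0.0947 and 0.192 (3.62), and Scg3 from 0.00299 and 0.00221 to 0.0449 and 0.0274 (2.41). All 3 rose with the block and on positions without it, and none passed on the values without it (limma adjusted p from 0.0581 to 0.0741). The 1 target called lower, Unc13a, a factor of synaptic vesicle release, changed by -0.70 on the values but by 0.12 on positions (limma-voom adjusted p = 0.823).

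Of the known targets, 27 held an RE1 match within 5 kb, and 23 of these were tested. Higher with the block were 8 (34.8%), and none was lower, beside 21% and 6.46% of all genes, with a median of 0.47 beside 0.20. These were Calb1, Nefm, the granins Chga (1.13 and 1.86 in the pairs) and Chgb (log2 fold change 0.82), Vgf (1.41), Nefh (1.08), Sez6 (0.98 and 1.02 in the pairs) and Syn1 (0.93), which coats synaptic vesicles. The calls of Chgb, Sez6 and Syn1 were lost under the block with quantile normalization, and that of Syn1 also with median-ratio scaling. The other 15 (among them Syp, Ptprn, Srrm4, Snap25, Syt4, Glra1, Scn2a1, Ap3b2, Chrnb2, Ina, Grin1, Scamp5, Bdnf and Stmn2) ranged from -0.48 to 0.74 and were not called. Scn2a1, a sodium channel gene among those in which the element was first described, had values of 0.0113 and 0.00443 in solvent and 0.0114 and 0.00797 with MS-275. Stmn2, whose site matches at all 18 letters, was far from silent in the control cells. Its values were 0.856 and 1.99 in solvent and 0.600 and 1.45 with MS-275 (log2 fold change -0.48, limma adjusted p = 0.887, and 0.284 with the block), and Stmn2 was called lower with the block after quantile normalization (limma adjusted p = 0.0130). Lhx3, with an equally complete site, was listed at 0 in both controls and at 0.00185 and 0.000250 with MS-275.

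All 189 genes with an RE1 match within 5 kb were then counted, whatever their function. The filter left 164. Here too a gene could pass it on the treated libraries alone, so the counts describe these genes and do not support a direction. Of these 50 were higher and 8 lower with the block (30.5% and 4.88%), beside 21% and 6.46% of all genes, and the median log2 fold change was 0.40 beside 0.20. The share higher was 34.6% with at most 1 mismatch (52 genes), 27.7% with at most 3 (509 genes), 34.1% with the site within 1 kb of a start (82 genes) and 27.6% within 20 kb (402 genes), these sets being nested. Among genes with a mean value of at least 0.01, 30.2% of 106 RE1 site genes and 20.0% of 14740 genes tested were higher, and below that mean 31.0% of 58 and 23.8% of 5596 were. Without a block, the positions called 39 of 143 higher and 7 lower (27.3% and 4.90%), beside 15.1% and 5.08%. After quantile normalization the median fell to 0.03 beside -0.02, with 31 higher and 19 lower under the block (18.9% and 11.6%), beside 14.3% and 13.6% of all genes, which is near the background.

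Muc3, which encodes a membrane mucin, was the single RE1 site gene, and the single gene of all, that passed without the block. Its values were 0.00975 and 0.00773 in solvent and 0.307 and 0.489 with MS-275 (log2 fold change 4.84, SE 0.476, limma adjusted p = 0.0415). After Calb1 and Nefm the next largest rises were in Ncan, a proteoglycan of brain matrix (2.64), Elavl3, an RNA-binding protein of neurons (2.55), and Riiad1 (2.35). The largest falls were in Prmt8, an arginine methyltransferase best known from neurons (-2.56), Slc5a11, a cotransporter of myo-inositol (-2.17), and Nphs1, which encodes nephrin of kidney podocytes (-2.16). Prmt8 had values of 0.0836 and 0.0385 in solvent and 0.00933 and 0.00278 with MS-275, and its site matches the motif at all 18 letters. Usp7 holds a match as well, at 3706, so that it stands in both lists.

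**Figure D5:**
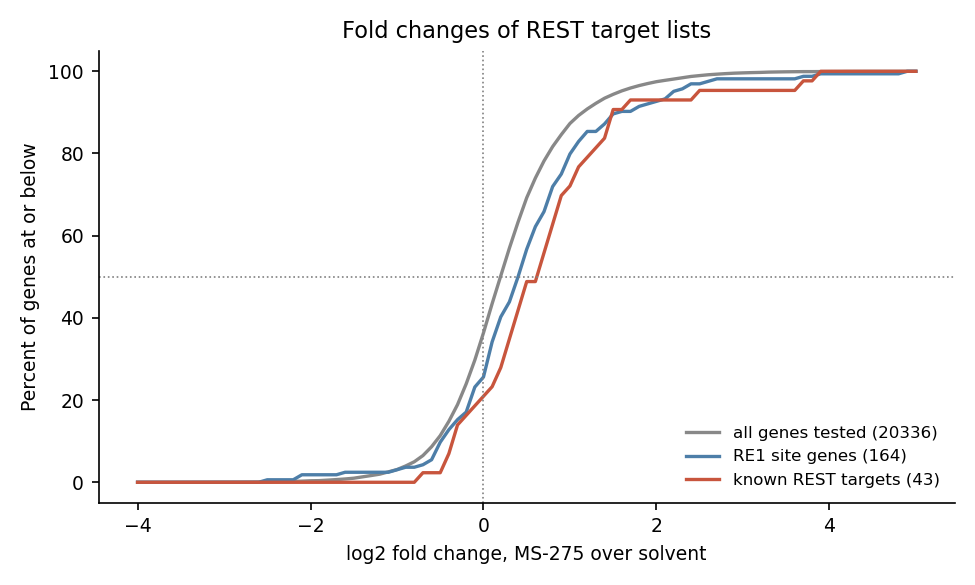
Percent of genes at or below each log2 fold change of MS-275 over solvent, for all 20336 genes tested (grey), 164 genes with an RE1 match within 5 kb of a start (blue) and 43 known REST targets (red). The curves cross 50% at 0.20, 0.40 and 0.63.

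Markers of the cells that the culture could hold moved in part with the members, and their share in the members' changes was not tested. The 7 ESC markers were above 0 in every library, with summed values of 4.79 and 16.6 in solvent and 3.97 and 9.30 with MS-275. With the block 2 of 7 (28.6%, beside 6.46% of all genes), Esrrb (-1.34) and Pou5f1 (-0.95), fell and none rose. After median-ratio scaling 4 were lower with the block (57.1%, beside 14.1%), and after quantile normalization 3 were (42.9%, beside 13.6%). Positions without a block called 1 lower (14.3%, beside 5.08%). None was called higher in these fits. All 7 were lower in both pairs, as were 5397 of the 20336 genes tested. Of 8 fibroblast markers, which feeder cells would carry, 4 rose with the block (50%, beside 21% of all genes) and none fell, among them Col1a1 (2.41), Col1a2 (1.06) and Thy1 (0.91). Dcn and Col3a1, named after their values were seen, had log2 fold changes of -0.72 and -0.52 and were lower in both pairs. With the block 3 were higher and 1 lower after median-ratio scaling (37.5% and 12.5%), beside 16.6% and 14.1% of all genes. After quantile normalization 3 were higher and 2 lower (37.5% and 25%), beside 14.3% and 13.6%. Positions without a block called 2 of 8 higher (25%), beside 15.1%. The sum of the 8 went from 0.333 and 0.497 to 0.561 and 0.852. Of 6 neuron markers 4 were tested. With the block 1 of these, Elavl3, rose (25%, beside 21% of all genes) and none fell. The sum of those 4 went from 0.292 and 0.252 to 0.461 and 0.652. Of this sum Elavl3, also an RE1 site gene, made up 0.0380 and 0.0353 in solvent and 0.146 and 0.390 with MS-275. The other tested markers had log2 fold changes from 0.09 to 0.41 and were not called. Map2 and Dcx stood at or under 0.00068 in every library on the value scale. On positions Map2, a microtubule protein of neurons, did pass without a block (log2 fold change 1.40, limma-voom adjusted p = 0.0051). It occupied 507 and 459 positions in solvent and 1060 and 1383 with MS-275, so its values near 0 do not follow its alignments. Dcx occupied at most 3 in any library.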

How the data were processed

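The authors mapped the reads to mm9 and made normalized expression values with Genomatix, and these deposited signal values (no formula, aligner or version is given in the sources used here) were used with the deposited alignments. The tables of the authors' ratios and of genes at 0.001 or more were not used. Members and gene lists were chosen with earlier results of these data known. Of 129 list entries, 126 matched by symbol, 1 by Entrez identifier, and 2 (Celsr3 and Penk) were not matched.

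Where 2 or more libraries reached 0.001, a gene was fitted as log2(value + 0.005) with limma 3.58.1 (R 4.3.3), eBayes with a trend, and Benjamini-Hochberg adjustment over all genes. A fold change on this scale understates that of low genes. Samples were grouped by their titles, the library called a duplicate being replicate 2. Pairing comes from the authors' headers, where both replicate 1 libraries are called old. Deviations from the group means correlated at 0.764 within pairs over 20336 genes, and at 0.517 over 16994 genes on positions. Distinct positions on unshared exons of GENCODE M1 were tested, where 2 or more libraries had 10, with limma-voom. The RE1 search used the mm9 genome and gene starts of the same annotation. Steps were tested on simulated data. Python 3.11.15 with numpy 2.4.6, pandas 2.3.3 and matplotlib 3.10.9 made the tables and figures.

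Named are the 5 members, in each list the called genes (at most the 3 largest rises and 3 largest falls) with Hdac1, Hdac2, Srrm4, Sin3a and Btrc, the 6 largest rises and 3 largest falls of RE1 site genes called with the block, known targets with a site, and the 2 genes nearest to each member. Genes named beyond this rule (Kdm1b, Usp7, Ehmt1, Ehmt2, Phf21a, Hmg20b, the low SNAG genes, Dcn, Col3a1, Map2 and Dcx) were chosen after their values were seen. Some genes that the rule names are not reported here.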

Additional observations from a re-analysis of the deposited data

How the results depend on the processing

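Kdm1a kept its direction and stayed uncalled under all 16 alternatives. Rest, Rcor2 and Rcor3 kept their direction under all 16, and they were called in 5, 4 and 5 of them. Rest was -1.23 with the replicate block, -1.51 with the block and median-ratio scaling, -1.25 with the block and quantile normalization, -0.93 on distinct positions and -0.92 on positions with the block. Rcor3 was -0.95, -1.21, -1.20, -0.94 and -0.93 under the same 5, and Rcor2 -0.92, -0.67, -0.67 and -0.66 under the last 4. Without the block, limma's adjusted p of Rest ranged from 0.0926 to 0.413 over the other pseudocounts, filters, scalings and the fit without a trend. Leaving out 1 library gave log2 fold changes from -1.66 to -0.79 for Rest (the latter without solvent replicate 2), from -1.01 to -0.26 for Rcor2, from -1.35 to -0.55 for Rcor3 (the latter without solvent replicate 1) and from -0.65 (without solvent replicate 1) to -0.12 (without solvent replicate 2) for Kdm1a, none of them called. Rcor1 ranged from -0.31 to 0.0349 and was reversed without solvent replicate 1 (0.0349) and without MS-275 replicate 2 (0.0322). Such a fit leaves 1 library in a group, which is assumed to vary like the other group, and it leaves the replicates unbalanced, so its value carries the offset between them. Rcor2 was -1.01 without solvent replicate 1, -0.26 without solvent replicate 2 and -0.34 without MS-275 replicate 1.

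The replicate block changed the count of called genes from 1 higher and 0 lower (2974 and 564 at an unadjusted p under 0.05) to 4277 and 1314. With the block the counts were 3379 and 2864 after median-ratio scaling and 2907 and 2767 after quantile normalization. Distinct positions gave 2568 and 864, and 5053 and 2343 with the block. A mean value of at least 0.01 gave 466 and 65 of 14740 genes. Pseudocounts of 0.001 and 0.02, no filter, either scaling without the block and the fit without a trend gave 0 in each direction, with 2230 to 2970 higher and 510 to 1856 lower at an unadjusted p under 0.05. Leaving out 1 library gave 0 to 160 higher and 0 to 29 lower (160 and 29 without solvent replicate 1, 76 and 25 without solvent replicate 2).

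The median log2 fold change of RE1 site genes stayed above 0 throughout, but the median of all genes moved too and is given beside it. The main fit gave 0.40 beside 0.20. Pseudocounts of 0.001 and 0.02 gave 0.56 beside 0.25 and 0.19 beside 0.11, and no filter gave 0.28 beside 0.06. Median-ratio scaling gave 0.22 beside -0.01 and quantile normalization 0.0321 beside -0.02 (the same with the block). Positions gave 0.56 beside 0.14, without and with the block. Medians were 0.47 and 0.32 with at most 1 and 3 mismatches and 0.48 within 1 kb, each beside 0.20. Leaving out 1 library gave from 0.17 beside 0.13 (without MS-275 replicate 1) to 0.61 beside 0.33 (without solvent replicate 1). Without solvent replicate 2 it was 0.23 beside 0.10. The causes of these shifts were not tested.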
